A study of Mus musculus with 8 samples.

Results

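The Fc gamma receptors of the mouse and the signalling chain that most of them share were followed in leukaemia cells whose myeloid transcription factor PU.1 was allowed to return. The 5 genes were chosen by name, as the 4 classical receptor genes Fcgr1, Fcgr2b, Fcgr3 and Fcgr4 and the chain gene Fcer1g, and all 5 are among the 12830 genes of the deposited tables. Each had a CPM (a gene's counts relative to the library's size, scaled between libraries by the TMM method) above 0.501 in all 8 libraries, so none entered the tables only through the days on which it was high. The cells were AML410, a murine monosomal karyotype acute myeloid leukaemia of p53-/- genotype with a GFP-linked hairpin RNA that silences PU.1 (shPU.1), grown in C57BL/6 recipients. These alleles were shared by all 4 groups, so the untreated cells are leukaemia cells with the hairpin on and not healthy marrow. All libraries come from this 1 leukaemia. Mice were untreated or received doxycycline (Dox) for 2, 4 or 6 days, which turned off the hairpin, and GFP-positive bone marrow cells were sorted by flow cytometry for RNA sequencing. The sort gate was GFPhigh in untreated mice, GFPhigh-mid at day 2, GFPmid at day 4 and GFPlow at day 6, so days of Dox and gate cannot be told apart. Each group had 2 libraries, which the titles call technical replicates and the design text describes as coming from duplicate mice. The p-values measure only the spread between these libraries, which may be technical.

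Fc gamma receptors bind the constant part of IgG antibodies and let myeloid cells take up and react to antibody-coated targets. Fcgr1, Fcgr3 and Fcgr4 encode activating receptors whose ligand-binding chains pair with the chain encoded by Fcer1g. That chain carries an immunoreceptor tyrosine-based activation motif (ITAM), which is phosphorylated by Src family kinases and then binds the kinase Syk. Fcgr2b encodes the inhibitory receptor, which works without the chain and carries an inhibitory motif (ITIM) in its own tail that recruits phosphatases. PU.1 is a known regulator of myeloid Fc receptor genes, and neutrophils, monocytes and macrophages are the cells in which the activating receptors are best studied. Fcgr2b is also the only classical Fc gamma receptor of B cells, and Fcgr3 is used by natural killer (NK) and mast cells.

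In the build mm10 (GRCm38), 4 of the 5 genes lie together on chromosome 1 within 273.8 kb. Their order is Fcgr2b (gene ID 14130, chr1:170960558-170976071), Fcgr4 (246256, chr1:171018926-171029761), Fcgr3 (14131, chr1:171051169-171065915) and Fcer1g (14127, chr1:171229572-171234349). Fcgr1 (14129) stands apart at chr3:96282909-96293969. The 120 bases before a listed start site of each gene are shown because the genes differ in how they moved when PU.1 returned. PU.1 is known to bind purine-rich sites with the letters GAGGAA. For Fcgr3 the start site used lies inside the gene span given above and not at its outer end. The sequences are from RefSeq on GRCm38.p6, read 5′ to 3′ along each gene, from chr3:96293970-96294089 (minus strand), chr1:171059404-171059523 (minus), chr1:171018806-171018925 (plus), chr1:170976072-170976191 (minus) and chr1:171234350-171234469 (minus). Capitals mark GAGGAA, which here always stands on the opposite strand and is read as TTCCTC, and TTCNNNGAA, the letters of interferon-type elements.
Fcgr1: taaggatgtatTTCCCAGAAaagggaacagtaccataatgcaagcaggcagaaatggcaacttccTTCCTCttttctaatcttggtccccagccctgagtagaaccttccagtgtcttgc
Fcgr3: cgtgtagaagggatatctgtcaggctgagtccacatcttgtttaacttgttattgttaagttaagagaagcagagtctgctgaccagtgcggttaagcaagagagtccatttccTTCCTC
Fcgr4: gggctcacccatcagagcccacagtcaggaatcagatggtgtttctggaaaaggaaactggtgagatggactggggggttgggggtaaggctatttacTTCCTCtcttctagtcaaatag
Fcgr2b: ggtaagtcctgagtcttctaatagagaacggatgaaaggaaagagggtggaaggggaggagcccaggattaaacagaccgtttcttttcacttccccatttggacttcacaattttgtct
Fcer1g: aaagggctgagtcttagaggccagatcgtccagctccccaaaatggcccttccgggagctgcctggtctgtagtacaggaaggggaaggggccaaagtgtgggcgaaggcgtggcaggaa

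GAGGAA was found in the windows of the 3 activating receptor genes and in neither the Fcgr2b nor the Fcer1g window. The windows searched run from 250 bases before to 50 bases after the start, on both strands. The match began 55 bases before the start in Fcgr1, 22 in Fcgr4 and 6 in Fcgr3 (15 from the other start site listed for that gene). Both listed Fcgr3 starts lie inside the gene span, and the bases before its outer end were not searched. The same letters occur in 28.3% of the 32851 mouse promoter windows of that length. The shorter core GGAA, which overlaps GAGGAA, was in all 5 genes and in 96% of all windows. TTCNNNGAA was in the Fcgr1 window alone among the 5, starting 109 bases before the start, and in 8.3% of all windows. These matches describe letters, not bound sites, and a window without them says nothing of the factor.

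The coding sequences show the 2 kinds of signalling motif that separate the chain from the inhibitory receptor. Both stretches were read from GENCODE M21 transcripts on GRCm38, with the tyrosine codons in capitals. The first covers codons 65 to 79 of the 86 of Fcer1g and the second codons 317 to 322 of the 340 of Fcgr2b.
Fcer1g ITAM: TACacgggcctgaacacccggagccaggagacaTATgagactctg
Fcgr2b ITIM: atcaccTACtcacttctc
A search for the ITAM pattern, 2 tyrosines in the canonical spacing, found it in Fcer1g and in none of the 4 receptor genes. The much looser ITIM pattern also matched stretches elsewhere in Fcgr1, Fcgr4 and Fcer1g.

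The libraries held 9262047 to 11213292 counts. Spi1, which encodes PU.1, checked the labels: its level was 8.34 and 12.9 CPM in the untreated libraries, 14.8 and 15.6 at day 2, 94.05 and 103 at day 4, and 217 and 229 at day 6. It therefore stood higher at each later day, with no overlap between groups, although the day 2 step did not pass the test (log2 fold change 0.52, adjusted p = 0.103, edgeR). The cells carried myeloid transcripts throughout, with group means of Elane between 2790 and 10320 CPM and of Prtn3 between 1469 and 2912 CPM. In day 2 replicate 1 a single gene took 13.3% of the counts, and that same gene took at most 0.149% in the other libraries.

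All 5 genes rose by day 4 and stayed raised at day 6, but by very different amounts: 35.6-fold for Fcgr1, 12.8-fold for Fcgr4, 4.57-fold for Fcgr3, 2.04-fold for Fcer1g and 1.40-fold for Fcgr2b at day 6 against untreated. A gene is called changed here when its Benjamini-Hochberg adjusted p in edgeR's quasi-likelihood test is under 0.05 over 12330 genes. At day 2, 1 of the 5 genes was called up, beside 4.18% of all genes called up and 1.95% called down. At day 4, 5 of 5 were called up, beside 26.1% of all genes up and 22% down. At day 6, again 5 of 5 were called up, beside 32% up and 31.6% down. At days 4 and 6 a call alone therefore sets a gene little apart, and the sizes are given for that reason. The median log2 fold change of the 5 genes was 0.31, 1.78 and 2.19 at days 2, 4 and 6, and that of all genes tested lay between -0.04 and 0.00. The 3 comparisons share the untreated libraries. Of all genes, 6.18% rose more than 4-fold at day 6, and Fcgr1, Fcgr3 and Fcgr4 were among them.

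TMM scaling assumes that most genes do not change. When libraries were scaled by their total counts instead, the median of all genes moved to -0.17 at day 2, -0.27 at day 4 and -0.47 at day 6 on the log2 scale. The total of day 2 replicate 1 includes the single gene with 13.3% of its counts, which lowers its other genes under that scaling. Genes called up then made up 20.5%, 28.7% and 23.8% of all calls on those days, against 68.3%, 54.3% and 50.3% under TMM. The order of the 5 genes by fold change at day 6 does not depend on this choice, because scaling shifts all genes of a library alike. The calls of Fcgr2b do depend on it, as given with that gene.

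**Figure D1:**
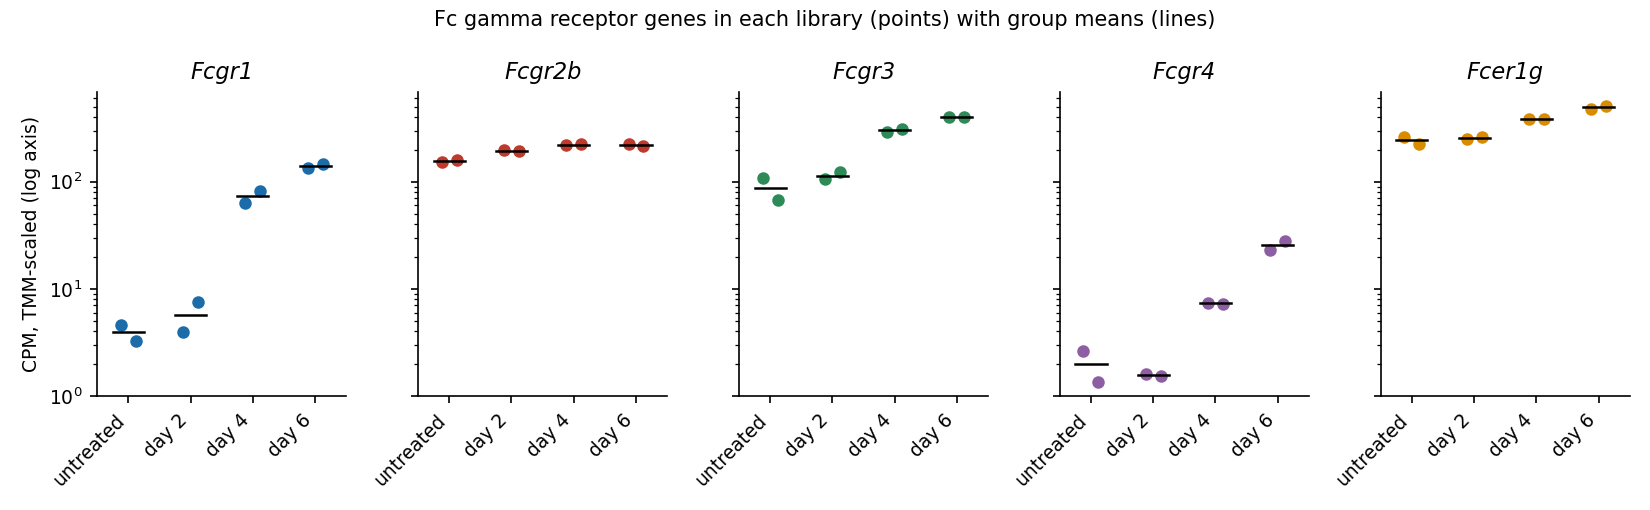
TMM-scaled CPM on a log axis for the 5 genes in each of the 8 libraries (points, 2 per group) with group means (lines). Fcgr1 and Fcgr4 climb from single digits to 140.5 and 25.6 CPM at day 6, while Fcgr2b stays between 153 and 225 CPM in all 8 libraries.

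Fcgr1 encodes the high-affinity IgG receptor. Its counts gave 4.60 and 3.27 CPM in untreated cells, 3.92 and 7.54 at day 2, 63.6 and 82.3 at day 4, and 135.7 and 145 at day 6. The untreated and day 2 libraries overlapped and were uniformly low, whereas every day 4 and day 6 library stood far above them. In the edgeR quasi-likelihood test its log2 change relative to untreated cells was 0.59 ± 0.31 (SE) at day 2 (adjusted p = 0.304), 4.21 ± 0.22 at day 4 (adjusted p = 4.69e-08) and 5.16 ± 0.21 at day 6 (adjusted p = 4.08e-09). By fold the larger step was from day 2 to day 4 (12.3-fold, adjusted p = 2.13e-07), followed by 1.93-fold from day 4 to day 6 (adjusted p = 0.000976, edgeR). In CPM the group means of 5.73, 73.0 and 140.5 at days 2, 4 and 6 lie about evenly apart. Among all genes tested, the Fcgr1 change stood at percentile 99.1 at day 6.

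Fcgr4 encodes a receptor of intermediate affinity found on neutrophils, monocytes and macrophages. It measured 2.64 and 1.34 CPM in untreated cells, 1.61 and 1.53 at day 2, 7.44 and 7.22 at day 4, and 23.1 and 28.1 at day 6. Its day 2 libraries lay within the untreated range, and each later pair stood clear of the ones before. By edgeR its log2 change relative to untreated cells was -0.34 ± 0.35 (SE) at day 2 (adjusted p = 0.626), 1.88 ± 0.27 at day 4 (adjusted p = 0.000154) and 3.68 ± 0.24 at day 6 (adjusted p = 1.58e-07). Its rise was spread over both later steps, 4.66-fold from day 2 to day 4 and 3.49-fold from day 4 to day 6 (adjusted p = 0.000112 and 0.000129, edgeR). Of the 5 genes it had the largest change in the last step.

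Fcgr3 encodes the low-affinity activating receptor of neutrophils, macrophages and NK cells. Its level was 108 and 67.4 CPM in untreated cells, 105 and 122.5 at day 2, 294 and 310.2 at day 4, and 402.5 and 401 at day 6. The untreated pair was spread widely and overlapped day 2, and the later pairs were tight and higher. Its log2 fold change was 0.38 ± 0.17 (SE) at day 2 (adjusted p = 0.22), 1.78 ± 0.17 at day 4 (adjusted p = 4.73e-06) and 2.19 ± 0.17 at day 6 (adjusted p = 4.81e-07, all edgeR). Without untreated replicate 1, the higher of that pair, the day 2 value became 0.76 and passed the test (adjusted p = 0.00242, edgeR). From day 4 to day 6 the change of 0.41 ± 0.16 did not pass (adjusted p = 0.0708), though the groups did not overlap. That step passed when days 4 and 6 were fitted alone (adjusted p = 0.000325), without untreated replicate 1 (0.00237) and without untreated replicate 2 (0.0025).

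Fcgr2b, the inhibitory receptor gene, was the most even of the 5. It measured 153 and 160.3 CPM in untreated cells, 196 and 192 at day 2, 219 and 223 at day 4, and 225 and 214 at day 6. The day 2 pair stood above the untreated pair and below the later ones, and the day 4 and day 6 pairs overlapped. In edgeR its log2 fold change was 0.31 ± 0.07 (SE) at day 2 (adjusted p = 0.0246), 0.50 ± 0.07 at day 4 (adjusted p = 0.000115) and 0.49 ± 0.07 at day 6 (adjusted p = 7.91e-05). Under total-count scaling it was 0.13, 0.25 and 0.05 and passed on none of the 3 days (adjusted p = 0.567, 0.12 and 0.722, edgeR). The day 2 call was also lost when only those 2 groups were fitted (adjusted p = 0.122) and without either day 2 library or either day 6 library (adjusted p from 0.064 to 0.0947, edgeR). The change from day 4 to day 6 was -0.01 ± 0.07 (adjusted p = 0.942).

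Fcer1g, the gene of the ITAM chain, measured 259.5 and 227 CPM in untreated cells, 252 and 264 at day 2, 389 and 386 at day 4, and 480.2 and 512 at day 6. Day 2 overlapped the untreated pair, and each later day stood above the one before. The log2 fold change was 0.08 ± 0.08 (SE) at day 2 (adjusted p = 0.596), 0.67 ± 0.08 at day 4 (adjusted p = 3.83e-05) and 1.03 ± 0.08 at day 6 (adjusted p = 6.29e-07, all edgeR). The last step, 0.36 ± 0.08 from day 4 to day 6, passed the test (adjusted p = 0.00646) but was lost without day 6 replicate 2 (0.32, adjusted p = 0.0809) and under total-count scaling (0.17, adjusted p = 0.353, edgeR).

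Between successive days, 4 of the 5 genes were called up from day 2 to day 4, beside 21.7% of all genes up and 15.9% down. Fcgr2b was the exception (0.19 ± 0.07, adjusted p = 0.0521, edgeR), and it passed without either untreated library (adjusted p = 0.0278 and 0.0287). From day 4 to day 6, 3 of the 5 were called up, Fcgr1, Fcgr4 and Fcer1g, beside 15.9% of all genes up and 14% down. Under total-count scaling the share of calls that were up in that step was 25% in place of 53.2%.

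**Figure D2:**
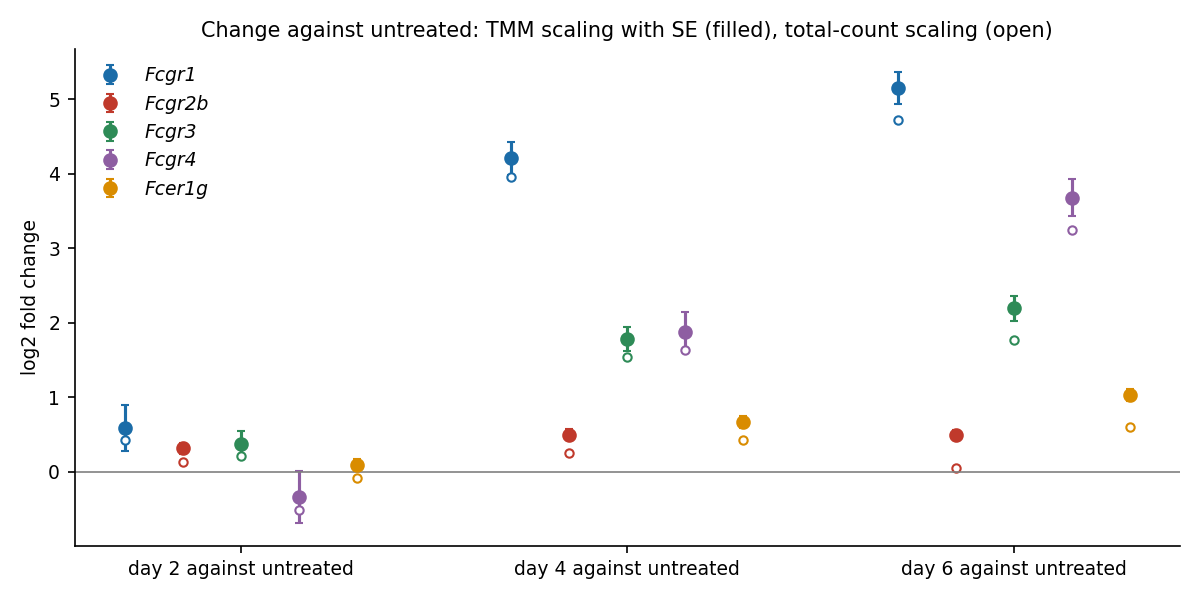
Log2 fold change against untreated at days 2, 4 and 6 for the 5 genes (filled points, TMM scaling, bars are SE) and the same value under total-count scaling (open points). At day 6 the filled points run from 0.49 for Fcgr2b to 5.16 for Fcgr1, and the open point of Fcgr2b is 0.05.

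Levels of different genes were compared per length, as RPKM (the TMM-scaled CPM divided by the gene's length in kilobases). In untreated cells the order was Fcer1g at 370 ± 34.8 RPKM (SD, n = 2), Fcgr2b at 101 ± 3.42, Fcgr3 at 65.0 ± 21.4, Fcgr4 at 1.59 ± 0.734 and Fcgr1 at 1.52 ± 0.363. The last pair overlapped, and all other neighbours were separate in both libraries. At day 2 the order was the same at the top, with Fcgr1 (2.21 RPKM) now above Fcgr4 (1.26). At day 4 Fcgr3 had passed Fcgr2b, with 217.5 and 229 against 141.5 and 144 RPKM. At day 6 the mean levels were 754 RPKM for Fcer1g, 297 for Fcgr3, 142 for Fcgr2b, 54.3 for Fcgr1 and 20.5 for Fcgr4, and no neighbours overlapped.

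The mix of receptor transcripts moved from mostly Fcgr2b to mostly activating genes. Fcgr2b made up 54.05% and 66.5% of the summed RPKM of the 4 receptors in untreated cells, 61.2% and 56.7% at day 2, 36.3% and 35.1% at day 4, and 28.3% and 27.0% at day 6. The early groups overlapped, and both later groups lay below them and apart from each other. Fcgr3 made up most of the gain, from a mean of 37.9% to 57.8%, while Fcgr1 went from 0.891% to 10.6% and Fcgr4 from 0.922% to 3.99%. The summed RPKM of the 3 activating genes over that of Fcgr2b was 0.850 and 0.503 in untreated cells, 0.635 and 0.763 at day 2, 1.75 and 1.85 at day 4, and 2.53 and 2.71 at day 6. These ratios are taken within a library and do not depend on scaling between libraries. They are given as a description, with no test. An exact permutation test of 2 against 2 libraries could not go below p = 0.33.

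The chain gene rose less than the receptors that use it. Fcer1g per activating receptor transcript, the RPKM of Fcer1g over the sum of Fcgr1, Fcgr3 and Fcgr4, was 4.70 and 6.62 in untreated cells, 4.75 and 4.23 at day 2, 2.38 and 2.20 at day 4, and 1.98 and 2.07 at day 6. Later groups were lower than the earlier ones, apart from the overlap of untreated and day 2. The chain still exceeded the summed receptors per length in all 8 libraries. Without the correction for length the group means of this ratio were 2.70, 2.14, 1.01 and 0.873, so its size rests on the deposited gene lengths, but its order over the days does not.

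**Figure D3:**
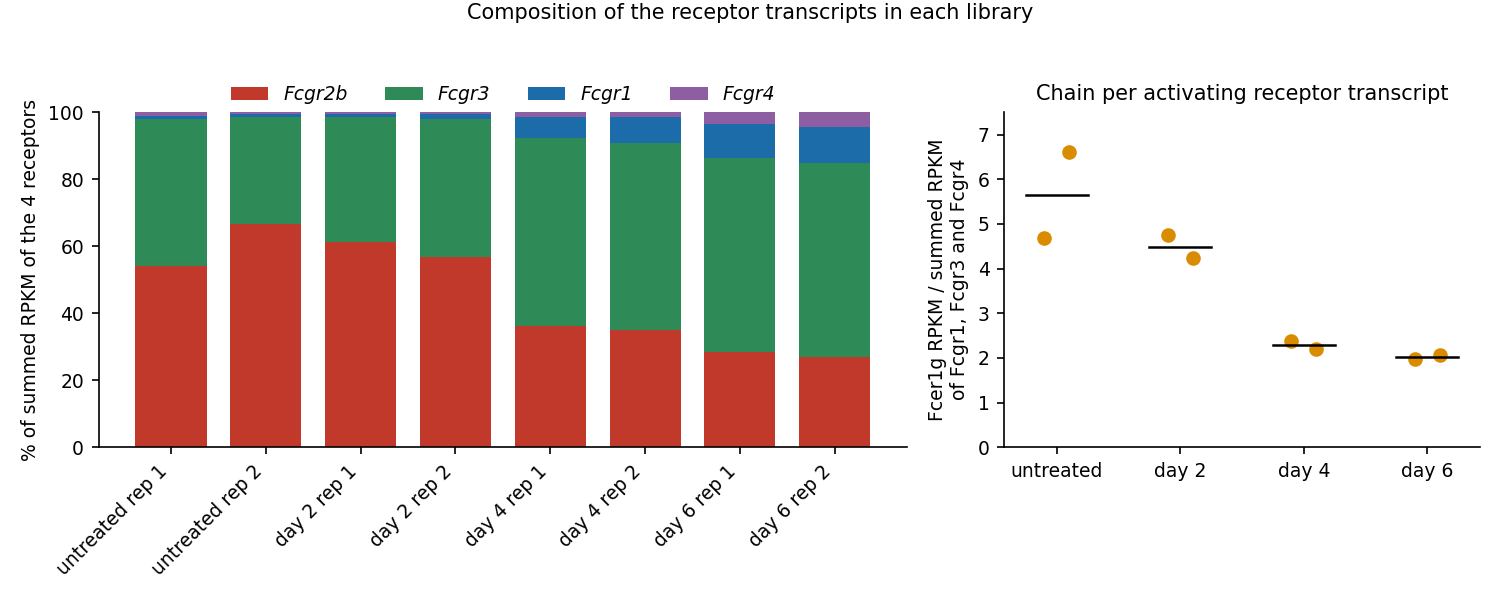
Left, the share of each receptor gene in the summed RPKM of Fcgr1, Fcgr2b, Fcgr3 and Fcgr4 in each library. Right, the ratio of Fcer1g RPKM to the summed RPKM of the 3 activating genes (points are libraries, lines are group means). The Fcgr2b share is 54.05% or more in the 4 early libraries and 36.3% or less in the 4 late ones.

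Fcgr2b and Fcgr3 are close copies over part of their length, which limits how well their counts can be separated. Their coding sequences are identical at 86.7% of aligned bases, against 64.1% to 68.6% for the other pairs of receptors. Of the 50-base stretches of the Fcgr2b transcript, 10.9% occur unchanged in Fcgr3 and 7% in an antisense gene, Gm38204, that overlaps it on the opposite strand. Of those of Fcgr3, 12.8% occur in Fcgr2b, and no such stretch of Fcgr1, Fcgr4 or Fcer1g occurs in another gene. The treatment of reads with several matches and of strand is not given in the sources used here. The levels of Fcgr2b and Fcgr3, and the share of Fcgr2b among the receptors, are therefore uncertain. The shares of exact stretches do not bound by how much.

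Genes of other cell types were measured beside these receptors, because Fc receptors are shared by many cells. In bulk RNA, fewer cells of a type and less RNA per cell cannot be told apart. As background for the marker lists, 4.18% of all genes were called up and 1.95% down at day 2. The shares were 26.1% and 22% at day 4, and 32% and 31.6% at day 6. All 11 neutrophil markers were called up at days 4 and 6. Their summed level ran from 2714 to 4015 CPM in untreated cells, 4362 to 7191 at day 2, 11240 to 16610 at day 4 and 59120 to 72330 at day 6. Of 9 monocyte markers, 8 were called up at day 4 and 8 up with 1 down at day 6. Their sums were 6156 to 6956, 7789 to 8694, 13080 to 13590 and 10690 to 11180 CPM over the same groups. Most of that was Ly6c2, at group means of 4771, 6408, 8524 and 6592 CPM, so the sum says little of the other monocyte markers. The median log2 fold change of the 9 monocyte markers was 3.62 at day 4 and 3.60 at day 6. For the neutrophil markers it was 2.13 and 4.33. The monocyte marker called down at day 6 was Irf8, which went from 1428 CPM in untreated cells to 605. From day 4 to day 6, 2 of the 9 were called up and 2 down, beside 15.9% of all genes up and 14% down. Of 7 tissue macrophage markers tested, 4 were called up at day 4 and 7 at day 6, with sums of 164.2 to 195, 273 to 279, 564 to 601 and 806 to 831.5 CPM. Most of that sum was Adgre1. From untreated cells to day 6, Siglec1 went from 0.719 to 62.6 CPM, Axl from 4.77 to 59.4 and C1qa from 0.424 to 5.73, all called up. The part of these cell states in the rise of the Fc receptor genes was not tested.

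B cells also carry Fcgr2b. The 10 B cell markers summed to 95.5 and 49.6 CPM in untreated cells, 151 and 27.0 at day 2, 29.4 and 32.3 at day 4, and 56.4 and 65.5 at day 6. None of the 10 was called at day 2, and 1 was called up (Cd22) and 2 down at day 4. At day 6, 1 was called up and 1 down. The part of B cells in the level of Fcgr2b was not tested. For Fcgr3, the NK cell list summed to 121.5 to 143 CPM in untreated cells, 198 to 236 at day 2, 137 to 151 at day 4 and 115 to 126 at day 6. Most of that was Nkg7, at group means of 121, 199.9, 118 and 98.9 CPM. Klrk1 went from 9.77 CPM in untreated cells to 23.1 at day 4 (log2 fold change 1.24, adjusted p = 0.000332, edgeR) and 18.9 at day 6. Klrd1 was at 1.14 to 2.12 CPM. Ncr1, Klre1, Eomes and Gzma are not among the 12830 genes with counts. Of 3 NK markers tested, 1 was called up at day 2, 1 at day 4, and 1 up and 1 down at day 6. Mast cell and basophil markers, whose cells use Fcer1g for the IgE receptor, summed to 271 to 298.5 CPM in untreated cells, 244 to 247 at day 2, 109 to 113 at day 4 and 132 to 150 at day 6. Most of that was Hdc, at group means of 222.7, 194.6, 93.0 and 123.9 CPM. Of the 6 genes of this list 2 were called down at day 4, and 1 up and 2 down at day 6. Between untreated cells and day 6 the group mean of Mcpt8 went from 55.6 to 6.35 CPM and that of Prss34 from 1.56 to 6.13. Cpa3 was near 1 CPM throughout (0.904 to 1.37 in group means).

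The other genes of the pathway were taken from 7 lists and are described against the same background of 32% of genes up and 31.6% down at day 6. Of the other Fc and immunoglobulin receptors, 4 of 12 listed genes were tested. By edgeR, 1 rose at day 4, Fcgrt, and 2 at day 6. Fcgrt, the neonatal Fc receptor that protects IgG from breakdown, went from 41.3 ± 3.44 to 121 ± 10.6 CPM (mean ± SD, n = 2) at day 6, a log2 fold change of 1.55. Trim21, a cytosolic antibody receptor, went from 24.2 to 39.7 CPM (0.71), a call lost under total-count scaling (0.28, adjusted p = 0.123). Fcrla (0.78, adjusted p = 0.435) and Ms4a2, the beta chain of the IgE receptor (-0.24, adjusted p = 0.566), did not pass.

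The list of receptors taken as partners of the Fcer1g chain, together with its sister adaptors, included the largest changes. Whether each listed receptor uses the chain in these cells was not tested. Of 9 genes tested, 1 was called up at day 2, 6 up and 1 down at day 4, and 7 up and 2 down at day 6, with a median log2 fold change of 2.83 at day 6. Clec4n, which encodes the fungal receptor Dectin-2, had 0 counts in both untreated libraries and 57 and 52 at day 6, which is at least 47.4-fold higher when 3 counts in the untreated pair are taken as the floor. Pira2, an activating immunoglobulin-like receptor, had 1 count over the untreated libraries and 323 over those of day 6, a ratio of 422 with a 95% exact counting interval from 75.1 to 16700. Tyrobp, which encodes the ITAM adaptor DAP12, was the gene called at day 2, and it went from 171.7 ± 18.5 to 1220 ± 4.56 CPM at day 6 (2.83). Il3ra, a chain of the interleukin-3 receptor, fell by 0.45 on the log2 scale, and the adaptor gene Hcst fell by 0.37, a call that DESeq2 did not make (adjusted p = 0.0759) and that was lost without day 6 replicate 2 (adjusted p = 0.0739, edgeR).

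The kinases listed for the early steps of the pathway, Btk and Tec among them, rose with 1 exception. Of 7 tested, 2 were called up at day 2, Syk and Btk, and 6 up and 1 down at both day 4 and day 6, with a median of 1.39 at day 6. Fgr, a Src family kinase of mature myeloid cells, measured 3.24 and 2.10 CPM in untreated cells, 3.11 and 2.06 at day 2, 18.1 and 23.4 at day 4, and 98.4 and 113 at day 6. The untreated and day 2 pairs overlapped at a low level, and each later pair was higher. Its group mean went from 2.67 ± 0.806 to 106 ± 10.6 CPM (log2 fold change 5.31, adjusted p = 1.93e-09, edgeR). Lyn, already at 159 CPM in untreated cells, reached 569 (1.84), and Syk went from 205 ± 3.42 to 539 ± 8.43 CPM (1.39). Fyn fell from 6.59 to 3.25 CPM, a log2 fold change of -1.02. Btk changed least (0.43), and its value under total-count scaling was -0.01 (adjusted p = 0.973, edgeR). Both day 2 calls of kinases were lost under total-count scaling, and that of Syk (adjusted p = 0.048, edgeR) also on leaving out any 1 library other than untreated replicate 1. The fall of Fyn at day 4 was not called by DESeq2 (adjusted p = 0.073) or without day 4 replicate 2 (adjusted p = 0.0867, edgeR).

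Adaptors and effectors downstream of Syk moved in both directions. Of 20 tested, 2 were called up and 1 down at day 2, 10 up and 4 down at day 4, and 14 up and 3 down at day 6, with a median of 0.51. Those of day 2 were Lat2 and Pik3cd, which rose, and Pik3r1, which fell. Under total-count scaling neither of the rises at day 2 was called, the day 6 counts were 8 up and 5 down, with a median of 0.08, and the day 4 median turned from 0.24 to -0.01. Prkcd, a protein kinase C, went from 184 to 623 CPM (1.76), and Pik3cd, the catalytic p110 delta subunit of PI3-kinase, from 120.2 to 403 CPM (1.75). The genes called down at day 6 were Lat, the adaptor best known from T cells (2.24 to 0.547 CPM, -2.00), Pik3r1, the regulatory PI3-kinase subunit (219 to 129 CPM, -0.76), and the phospholipase gene Plcg1 (20.7 to 13.4 CPM, -0.63).

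Phosphatases and adaptors that act with the inhibitory receptor changed less. Of 8 tested, 2 were called up at day 2, 3 at day 4, and 6 up with 1 down at day 6, with a median of 0.30. The day 6 count was 3 up and 1 down by DESeq2 and 3 up and 2 down under total-count scaling, where the median was -0.13. The genes called at day 2 were Dok3 and Ptpn6, and Inpp5d joined them at day 4, a call lost under total-count scaling (0.22, adjusted p = 0.171, edgeR). Inpp5d, which encodes SHIP-1, the phosphatase recruited by the Fcgr2b ITIM, went from 253.5 ± 6.27 to 421.5 ± 7.96 CPM at day 6 (0.73). Ptpn6, which encodes SHP-1, went from 228 to 636.5 CPM (1.48), and the adaptor gene Dok3 from 54.9 to 188 CPM (1.78). Inppl1, the gene of the related SHIP-2, fell by 0.36 on the log2 scale.

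The machinery of engulfment and the oxidase that follows it rose broadly. Of 18 engulfment genes tested, 5 were called up at day 2, 15 up and 2 down at day 4, and 16 up and 1 down at day 6, with a median of 1.15. The 5 of day 2 were Coro1a, Dock2, Myo1f, Myo1g and Marcks, and under total-count scaling 1 gene of the list rose on that day. Coro1a, an actin-binding protein of phagocytes, went from 302 ± 40.4 to 2893 ± 96.3 CPM (3.26), and the myosin gene Myo1g from 107 to 528 CPM (2.30). Fcho1, a membrane-bending protein of endocytosis, fell by 0.42, and the phospholipase gene Pld1 did not pass (0.16, adjusted p = 0.2). All 5 subunit genes of the phagocyte oxidase were called up at days 4 and 6. Cybb, its catalytic subunit, measured 755 and 613 CPM in untreated cells, 1031 and 1058 at day 2, 2782 and 2939 at day 4, and 4890.0 and 5128 at day 6 (2.87). At day 6 Cyba, Ncf1 and Ncf4 had log2 fold changes of 1.77, 1.48 and 2.09. Of the oxidase genes, 3 were called at day 2, Cybb, Cyba and Ncf1, and none under total-count scaling or with only those groups fitted.

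**Figure D4:**
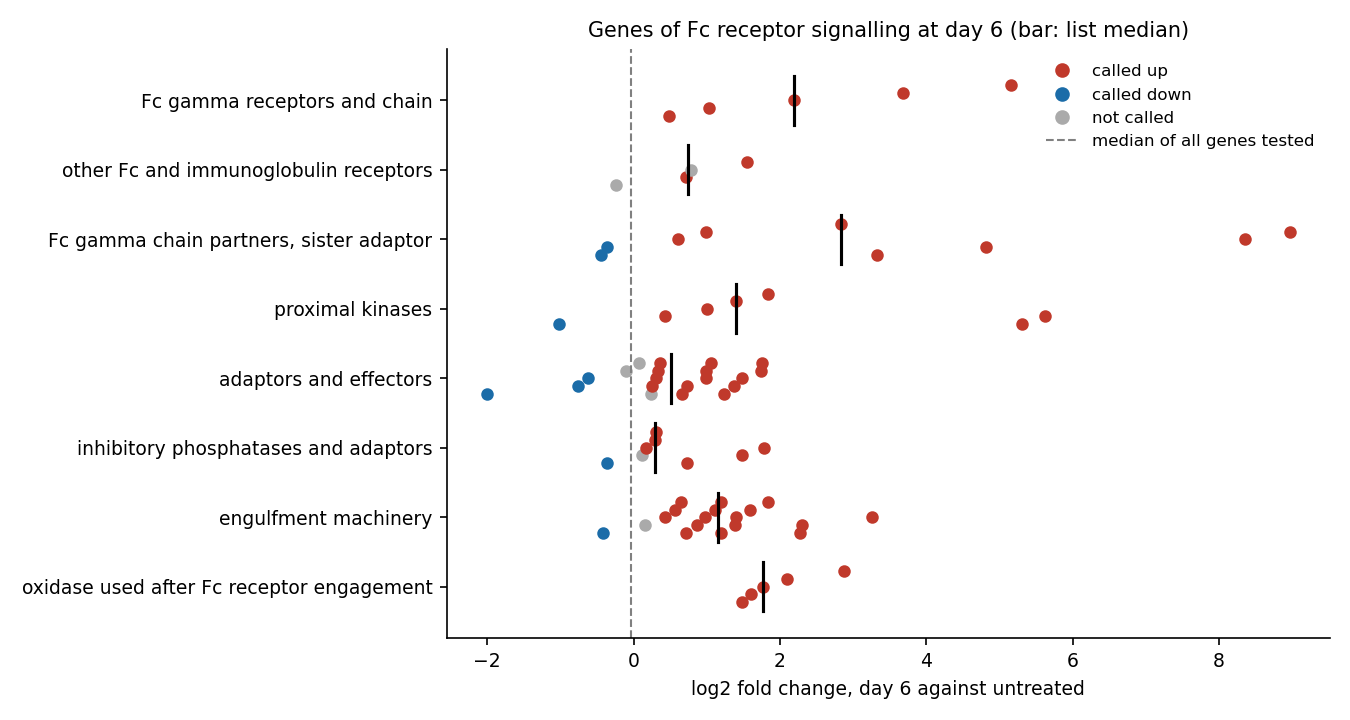
Log2 fold change at day 6 against untreated for each tested gene of the Fc gamma receptor set and the 7 pathway lists (red called up, blue called down, grey not called; black bars are list medians; the dashed line is the median of all genes tested). The bars run from 0.30 for inhibitory phosphatases and adaptors to 2.83 for the list of chain partners and sister adaptors, which is the value of Tyrobp.

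The genes with the most similar pattern differed from member to member. Likeness was the root mean square difference of centred log2 CPM over the 8 libraries, among 9151 genes of average log2 CPM of 3 or more, and carries no test. Closest to Fcgr1 were Ifi207, an interferon-inducible gene (difference 0.18), Jaml (0.21) and Cyp4f18 (0.21). Closest to Fcgr3 were Man1c1 (0.12), Gbp2 (0.14) and N4bp2l1 (0.14), and closest to Fcgr4 were Pram1 (0.23), Fam102a (0.27) and Ffar2 (0.33). Fcgr2b was most like Btbd1 (0.04), Raly (0.05) and Nt5c2 (0.05), and Fcer1g most like Capzb (0.04), Grb2 (0.04) and Coro1b (0.05). Grb2 is itself among the listed adaptors. Many genes share such shapes, and ranking by Pearson correlation kept 1 of the 3 genes for Fcgr2b and none for the other 4. Among the 5 genes themselves, Fcgr2b and Fcer1g were closest (0.29) and Fcgr1 and Fcgr2b farthest apart (2.08).

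**Figure D5:**
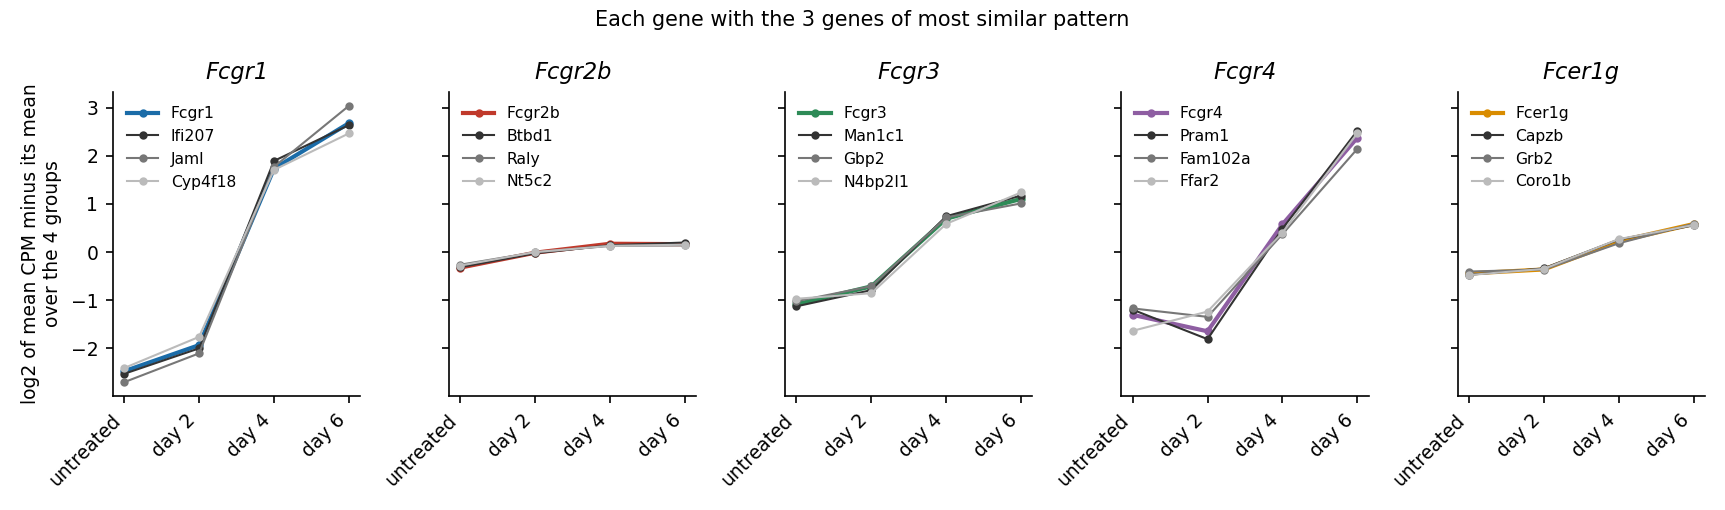
Log2 of the group mean CPM, minus its mean over the 4 groups, for each of the 5 genes (coloured) and the 3 genes closest to it (grey). Fcgr1 spans more than Fcgr2b by far, with day 6 changes of 5.16 and 0.49 on the log2 scale.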

How the data were processed

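RNA was sequenced from sorted AML410 cells in 8 libraries, 2 in each of 4 groups. The deposited tables hold whole-number counts and a gene length per Entrez gene ID, per the file headers. Per the submitters' processing notes, the tools were featureCounts, CASAVA 1.8.2, limma 3.22.0 and edgeR 3.8.2, and the build was mm10. The aligner is not given in the sources used here, nor is the strand setting. Every deposited gene reaches a CPM of 0.501 in at least 3 libraries, so genes low in 6 or more libraries are absent from the tables. Symbols came from RefSeq on GRCm38.p6 and matched 12555 of 12830 IDs.

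All libraries entered 1 fit in R 4.3.3 with edgeR 4.0.16 (filterByExpr, which removed 500 genes, TMM scaling, glmQLFit and glmQLFTest, group means, no covariate, Benjamini-Hochberg adjustment over 12330 genes, threshold 0.05). The fit had 4 residual and 7.08 prior degrees of freedom. RPKM was computed here from TMM-scaled counts and the deposited gene length. Standard errors were computed from each fold change and the square root of F. Intervals and floors cover counting error only. The script was tested on simulated data. Alternatives were RLE and total-count scaling, no filter, only the groups compared, a minimum change of 1.5-fold, a replicate block, DESeq2 1.42.0 and leaving out each library.

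The members and gene lists were chosen with earlier results of these data known. Named genes are the 5 members, Spi1, from each pathway list the 2 highest and 2 lowest log2 fold changes at day 6 plus the genes behind counts of 5 or fewer, and for each member the 3 genes closest in centred log2 CPM (prior count 2). Other genes named, such as Lyn and single markers, were chosen after their values were seen. Some named or listed genes are counted but not reported singly here.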

Additional observations from a re-analysis of the deposited data

How the results depend on the processing

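The direction of the 25 fold changes of the 5 genes was kept wherever a call was made, and 352 of 375 alternative values stayed on the same side of the threshold, with 17 calls lost and 6 gained. At day 2 the number of the 5 genes called was 1, and it was 0 under total-count scaling, 0 with only the 2 groups fitted, 0 with a minimum change of 1.5-fold, and 0 to 2 on leaving out 1 library. With that minimum change it was 3 at day 4, against 5 as reported, and 1 from day 4 to day 6, against 3 as reported. Under total-count scaling these were 4 and 2. With 1 library left out it was 5 at days 4 and 6, 4 to 5 from day 2 to day 4 and 2 to 4 from day 4 to day 6. The uncalled day 2 change of Fcgr4 turned from -0.34 to 0.22 without untreated replicate 1 and was -0.75 without untreated replicate 2, and that of Fcer1g turned from 0.08 to -0.09 under total-count scaling. A lone library left in a group was assumed to vary like the others.

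Counts over all genes moved more. At day 2, 516 genes up and 240 down became 170 and 658 under total-count scaling, 175 and 57 with only those groups, and 20 and 4 with the minimum change. At day 4, 3217 and 2707 became 1816 and 4519, or 1312 and 750 with the minimum change. At day 6, 3942 and 3897 became 2078 and 6647, or 2062 and 1612. From day 2 to day 4, 2681 and 1959 became 967 and 467 with the minimum change. From day 4 to day 6, 1961 and 1728 became 881 and 2646 under total-count scaling and 342 and 212 with the minimum change, and DESeq2 called 1089 down. On leaving out 1 library, the day 2 calls ran from 241 to 738 up and 84 to 587 down, and those from day 4 to day 6 from 1006 to 2222 up and 710 to 1971 down.

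With the replicate block, 1, 5, 5, 4 and 3 of the 5 genes were called in the 5 comparisons, as without it. Same-numbered libraries did not deviate together (r from -0.13 to 0.209 over the pairs of groups), so the numbers were not taken as pairs. Fcgr4 and Fcgr1 rest on few counts in the early groups (31 and 16 for Fcgr4 in untreated cells), so small changes there were not detectable at this depth.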

Other observations

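Other marker lists also moved, and are given as values, beside 32% of all genes called up and 31.6% down at day 6. Of 6 erythroid markers, 5 were called up at day 6 by edgeR, with sums of 6.62 to 14.5 CPM in untreated cells and 40.8 to 64.5 at day 6. Of 5 eosinophil markers 3 were called up at day 6 (sums of 11.7 to 16.9 and 26.6 to 27.4 CPM), among them Siglecf, which went from 1.99 to 10.9 CPM. Of 5 dendritic cell markers tested 4 were called up at day 6 (71.0 to 76.7 and 130.5 to 149 CPM), mostly Bst2. Of 4 platelet and megakaryocyte markers 3 were called up (153 to 215 and 253.5 to 275 CPM), mostly Itgb3. The T cell list rested on Lck alone, at 1.36 CPM or less in group means. Cd3d, Cd3e and Cd3g are not among the 12830 genes with counts.

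Among 10 myeloid identity genes, 6 were called up and 3 down at day 6, beside 32% of all genes up and 31.6% down. Ptprc, which encodes the leukocyte antigen CD45, was at 27.3 CPM before Dox and 681 at day 6, and Itgam, a chain of the complement receptor that works beside Fc receptors in uptake, was at 29.8 and 1677 CPM. Elane, a primary granule protease, stood at 8017 and 2790.0 CPM, and Cebpa, a myeloid transcription factor, at 410.3 and 199 CPM.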
